A study of Mus musculus with 6 samples.

Results

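The genes that carry glucose through glycolysis to lactate, and the genes of the cellular response to low oxygen, were examined in mouse retina at embryonic day 16.5. The members were given as 37 gene symbols, covering glucose transporters, glycolytic enzymes, lactate and pyruvate handling, and the subunits, regulators and targets of the hypoxia-inducible factors (HIF). Matched by identifier through the gene names of the authors' deposited table, they take up 38 of the 55487 rows of the count table, because 2 Ensembl genes are named Aldoa. Of these rows 37 passed the filter on low counts and were tested with 17275 genes in all, and Adm did not pass.

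The series holds 6 RNA sequencing libraries from 1 litter of the C57BL/6 strain, each from the pooled left and right retinas of a separate animal. All 6 animals carried loxP-flanked Foxp1 alleles (Foxp1 fl/fl), and the 3 animals labelled Foxp1 cKO carried Six3-Cre as well, a Cre recombinase driven by Six3 sequence in the developing eye field and retina. The 3 controls had no Cre, so an effect of Cre and an effect of the deletion cannot be told apart. The design sets retinas meant to lack Foxp1, which encodes a DNA-binding protein of the forkhead family, against littermate retinas that keep it.

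The libraries held 23707761 to 25714620 counts. The retinal progenitor gene Rax, 1 of 14 retina markers listed, lay between 531 and 565 CPM (counts scaled to a common library size) in every library. The targeted gene went against the labels: Foxp1 had 1742 to 1850 counts in the cKO-labelled libraries and 1019 to 1213 in the control-labelled ones. Sex-linked transcripts went against the labelled sex in the libraries labelled control 2 and cKO 2. Xist had 17599, 13 and 5 counts in control-labelled libraries 1, 2 and 3 and 15165, 14143 and 1 in the cKO-labelled ones. Every direction below is therefore that of cKO-labelled against control-labelled libraries. Whether labels were exchanged between libraries or between the whole groups was not tested, so a direction here need not be that of the genotype. In the authors' deposited table the contrast of cKO with control has the opposite sign for 32 of the 37 tested rows, and for all 135 genes called here. Foxp1 itself is lower in cKO in that table, at a log2 fold change of -0.60 with an adjusted p of 6.02e-11 there.

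Glycolysis splits glucose into pyruvate with a small yield of ATP, and lactate dehydrogenase then turns pyruvate into lactate so that the pathway can keep running. Dividing retinal progenitors and, later, photoreceptors are known for making lactate even when oxygen is present. When oxygen is scarce, the prolyl hydroxylases that mark HIF alpha subunits for destruction slow down. The alpha subunits then pair with Arnt on hypoxia response elements and raise glucose transporters, glycolytic enzymes, Vegfa and other targets.

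Of the 37 tested rows 1 passed an edgeR adjusted p of 0.05, and it was Hif3a, which fell in the cKO-labelled libraries. Over all tested genes 0.781% passed, and 0.486% passed in the lower direction. The next smallest adjusted p were those of Pdk1, Ldha, Ldhb and Pgk1, with log2 fold changes between 0.17 and 0.24, and none of these 4 passed. The glucose transporter Slc2a1, the hexokinases, Vegfa and the other tested hypoxia targets did not pass. An unadjusted edgeR p under 0.05 was found in 10 of the 37 rows (27%), against 16.5% of all tested genes. Of these 8 rows were higher and 2 lower, where 7.83% and 8.64% of all tested genes were. The groups did not overlap in 6 rows (16.2%), against 20.1% of all tested genes, and 4 of these were higher and 2 lower, against 10.8% and 9.3%. Of the rows 21 (56.8%) were higher, against 50.1% of all tested genes, and 16 were lower. Their median log2 fold change was 0.03, and that over all tested genes was 0.00. In the other direction of call, 0.295% of all tested genes and no member passed as higher.

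**Figure D1:**
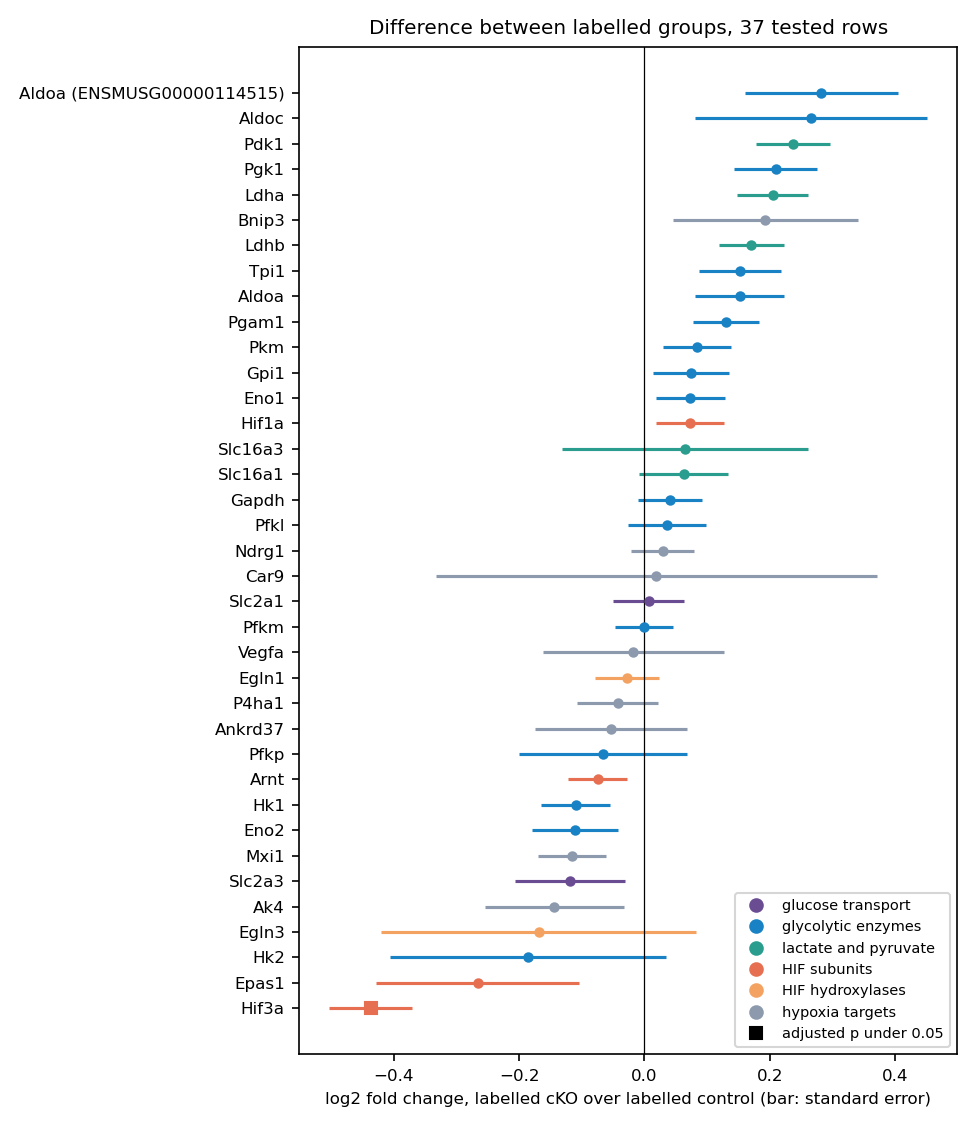
Log2 fold change of each of the 37 tested rows, cKO-labelled over control-labelled libraries (horizontal axis), with its standard error as the bar, coloured by role. Hif3a, the square at -0.44, is the row that passed an edgeR adjusted p of 0.05, and the lactate and pyruvate genes Pdk1, Ldha and Ldhb lie between 0.17 and 0.24.

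Hif3a encodes an alpha subunit of the HIF family. Some of its splice forms lack the activation domain and hold back the other alpha subunits, and a count per gene does not separate these forms. The gene (ENSMUSG00000004328, chromosome 7, 17031507 to 17062427, minus strand, mm10) was at 41.9, 43.9 and 43.3 CPM in control-labelled libraries 1, 2 and 3. In the cKO-labelled libraries 1, 2 and 3 it was at 32.2, 29.7 and 33.4 CPM. All 3 cKO-labelled libraries lay below all 3 control-labelled ones, and the gap between the groups was wider than the range within either. The means were 31.8 ± 1.89 CPM and 43.0 ± 1.05 CPM (SD, n = 3 each), a 1.35-fold difference, with an edgeR adjusted p of 0.00188 (log2 fold change -0.44, standard error 0.07). In these bulk samples fewer cells of a type and less RNA per cell cannot be told apart.

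The Hif3a call held in edgeR with each library left out in turn, with log2 fold changes between -0.47 and -0.39 and adjusted p of 0.0382 or less. It was lost without the libraries labelled control 2 and cKO 2 together, at an edgeR adjusted p of 0.289 and a log2 fold change of -0.38, and no member and 0.0516% of all tested genes passed there. In DESeq2 the gene had an unadjusted p of 1.10e-08 and was given no adjusted p. The authors' deposited table lists Hif3a at a log2 fold change of 0.41 with an adjusted p of 4.71e-04, so that size is close and direction opposite.

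The other HIF subunits did not pass. Hif1a, the broadly expressed alpha subunit, was at 282, 297 and 283 CPM in the control-labelled libraries and at 298, 323 and 286 CPM in the cKO-labelled ones, and the groups overlapped (log2 fold change 0.07, edgeR adjusted p 0.556). Epas1, the alpha subunit best known from endothelium, was low at 5.61 to 10.9 CPM (log2 fold change -0.27, edgeR adjusted p 0.457). Arnt, the shared partner, was at 71.2 to 78.9 CPM (log2 fold change -0.07, edgeR adjusted p 0.466). Per kilobase of summed exon length, Hif1a made up 85.9% ± 0.29 of the 3 alpha subunits in the control-labelled libraries and 89.4% ± 1.44 in the cKO-labelled ones (SD, n = 3 each). Hif3a made up 11.3% ± 0.23 and 8.29% ± 0.86, and Epas1 2.83% ± 0.42 and 2.35% ± 0.59. The alpha subunit level was thus mostly Hif1a in both groups, with Hif3a the next and Epas1 the smallest share.

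**Figure D2:**
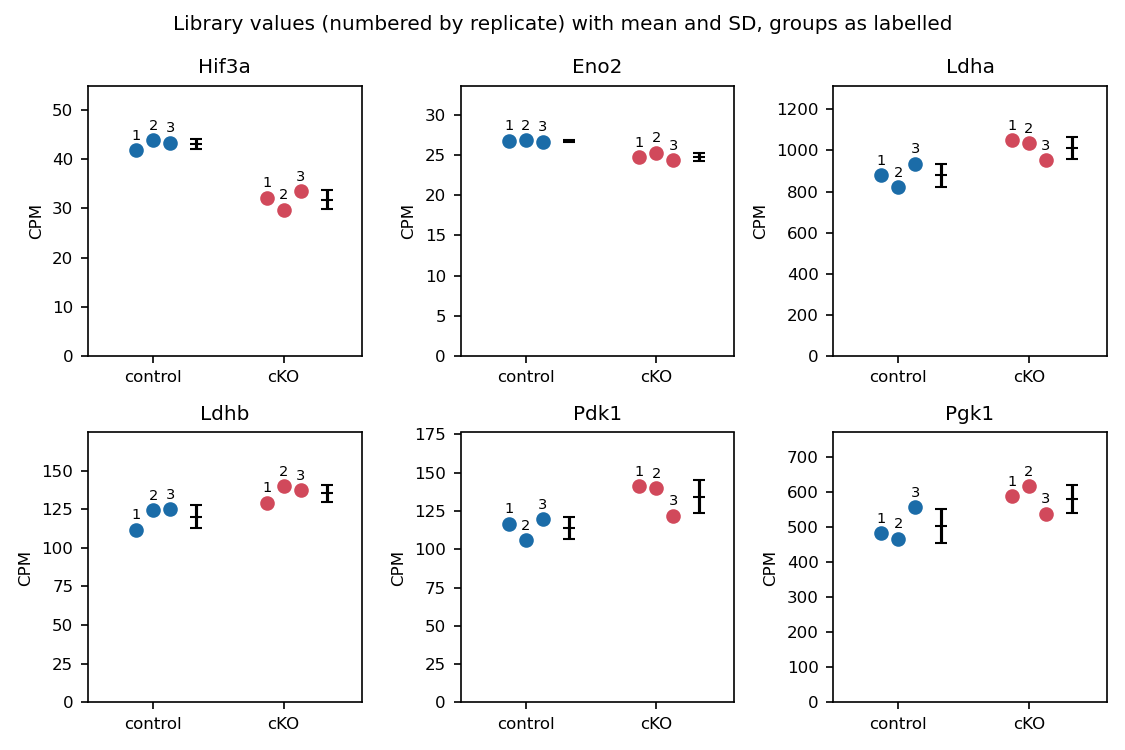
CPM of 6 genes in each library, with the replicate number beside each point and the mean and SD (n = 3) as the black bar, each vertical axis starting at 0. Hif3a and Eno2 were lower in every cKO-labelled library than in every control-labelled library, Ldha, Ldhb and Pdk1 were higher in every one, and Pgk1 overlapped.

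Both lactate dehydrogenase genes and the gene of the kinase that switches off pyruvate dehydrogenase were higher in every cKO-labelled library, without passing over all genes. Such a lack of overlap in the higher direction was found in 10.8% of all tested genes. Ldha, whose product favours making lactate (ENSMUSG00000063229, chromosome 7, 46841475 to 46855627, plus strand), was at 879.9, 821 and 935 CPM in control-labelled libraries 1, 2 and 3 and at 1051, 1035 and 952 CPM in the cKO-labelled ones. The lowest cKO value, in cKO 3, was only just above the highest control value, in control 3. The edgeR adjusted p was 0.0762 (log2 fold change 0.20, standard error 0.06).

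Ldhb, whose product favours using lactate (ENSMUSG00000030246, chromosome 6, 142490249 to 142507957, minus strand), was at 112, 124 and 125 CPM in the control-labelled libraries and at 129, 139.7 and 137 CPM in the cKO-labelled ones. The library labelled control 1 was the lowest, and the groups did not overlap (log2 fold change 0.17, standard error 0.05, edgeR adjusted p 0.0943). With the trend of each library with exon length removed, the log2 fold change of Ldhb was 0.10. In the same setting that of Ldha was 0.17 and that of Pdk1 0.28. The split between the 2 genes was alike in both groups: per kilobase, Ldha made up 77.6% ± 1.58 of both genes in the control-labelled libraries and 78.0% ± 1.35 in the cKO-labelled ones (SD, n = 3 each).

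Pdk1, the gene of that kinase and a known HIF target (ENSMUSG00000006494, chromosome 2, 71873224 to 71903858, plus strand), was at 117, 106 and 119.5 CPM in control-labelled libraries 1, 2 and 3. It was at 141, 140.1 and 122 CPM in the cKO-labelled ones, again with cKO 3 close to the highest control. The edgeR adjusted p was 0.0628 (log2 fold change 0.24, standard error 0.06). The monocarboxylate transporters, which move lactate across the cell membrane, did not stand apart: Slc16a1 lay between 30.5 and 35.9 CPM (log2 fold change 0.06, edgeR adjusted p 0.725). Slc16a3, the HIF-responsive exporter, lay between 121 and 185 CPM (log2 fold change 0.06, edgeR adjusted p 0.924).

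The calls of these genes changed when single libraries were left out. Without the library labelled control 3, Ldha, Ldhb, Pdk1 and Pgk1 passed with edgeR adjusted p of 0.0150, 0.0346, 0.0197 and 0.00761, while 4.4% of all tested genes passed. Without cKO 3, Pdk1 passed (edgeR adjusted p 0.0416), as did 0.154% of all tested genes. Without control 1, control 2, cKO 1 or cKO 2 the member that passed was Hif3a, beside 0.193%, 0.119%, 2.04% and 0.107% of all tested genes. Without the libraries labelled control 2 and cKO 2 their edgeR adjusted p lay between 0.714 and 0.797, and the log2 fold change of Pgk1 was 0.12 and that of Pdk1 0.16. With no filter on low counts Hif3a and the same 4 genes passed, beside 2.47% of the genes then tested. With DESeq2 Ldha, Pdk1 and Pgk1 passed, beside 3.28% of all tested genes, where genes given no adjusted p count as not passing. Hif3a was the member that passed with RLE scaling (0.729% of all tested genes), upper quartile scaling (0.538%) and a filter at 1 CPM (0.559%). The same held with no robust estimation (0.0579%), limma-voom (0.0753%), labelled sex in the design (0.654%) and the exon length trend removed (0.22%). The labelled sex goes against sex-linked transcripts in control 2 and cKO 2, and no fit used the sex those transcripts give. The authors' deposited table has Ldha at -0.18 (adjusted p 0.0300) and Ldhb at -0.20 (adjusted p 0.0258), which with Hif3a are the 3 members under 0.05 there. That table gives an adjusted p for 28 member rows and for 7593 genes in all, of which 8.97% are under 0.05.

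**Figure D3:**
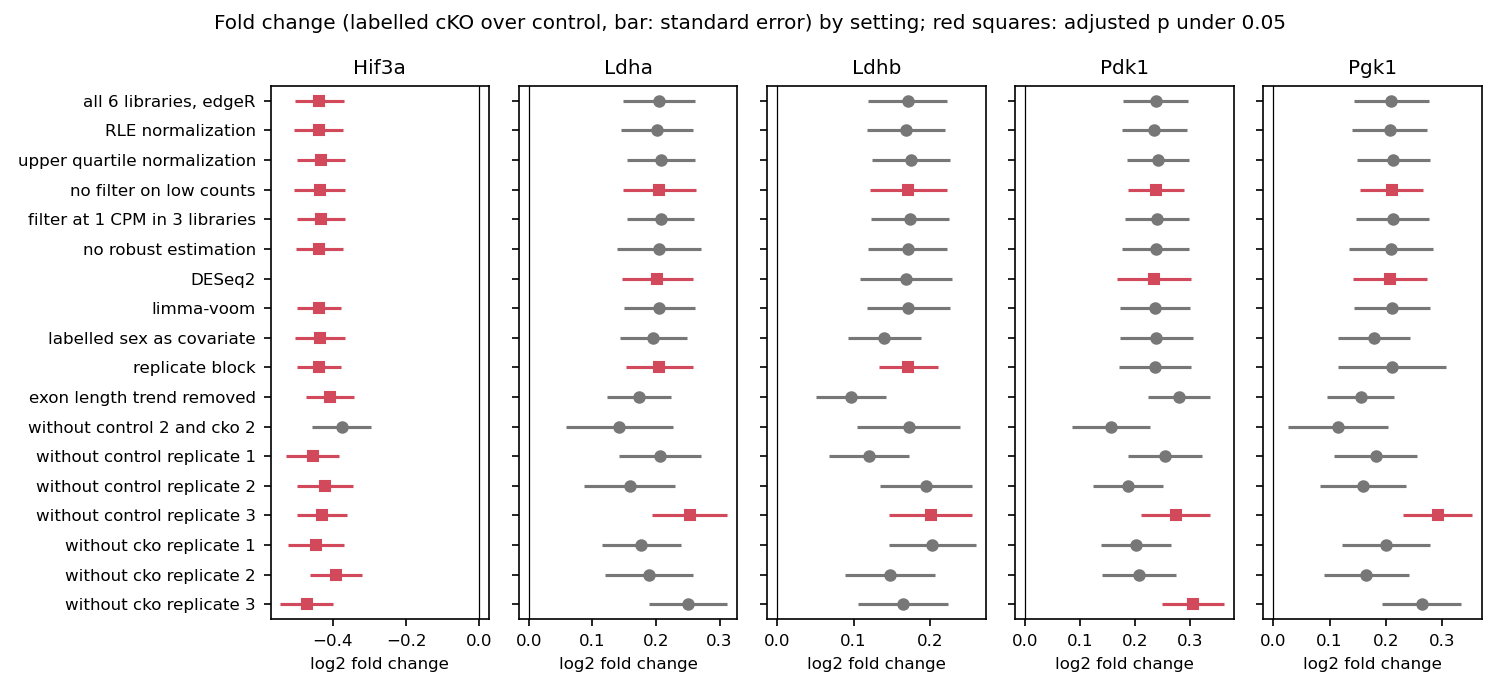
Log2 fold change of 5 members (horizontal axis, a scale of its own in each panel) under each way of processing, with the standard error as the bar and red squares where the adjusted p is under 0.05. Hif3a has no point for DESeq2, which gave it no adjusted p, and is grey only without control 2 and cKO 2, while the other 4 genes are red under at most 4 settings.

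Several of these genes have hypoxia response element letters near their start. Stretches before the starts are shown for Hif3a, which passed in edgeR with all 6 libraries, and for Ldha, Pgk1 and Pdk1, which did not. They are the 250 bases before a RefSeq transcription start (GRCm38.p6), 5′ to 3′ on the strand of the gene, with each match to ACGTG or GCGTG on either strand in capitals. Where a gene has several starts, the one with the most matches is shown. A CACGTG holds ACGTG on both strands and counts as 2 matches, and neighbouring matches can overlap. The stretches are chr7:46845554-46845803 (plus strand) for Ldha, chrX:106186850-106187099 (plus) for Pgk1, chr2:71872974-71873223 (plus) for Pdk1 and chr7:17062428-17062677 (minus) for Hif3a.
Ldha: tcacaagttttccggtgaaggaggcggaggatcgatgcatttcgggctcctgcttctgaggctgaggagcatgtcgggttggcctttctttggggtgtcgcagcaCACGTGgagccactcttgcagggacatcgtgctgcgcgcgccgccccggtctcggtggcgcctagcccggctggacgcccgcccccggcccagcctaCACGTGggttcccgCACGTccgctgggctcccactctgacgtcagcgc
Pgk1: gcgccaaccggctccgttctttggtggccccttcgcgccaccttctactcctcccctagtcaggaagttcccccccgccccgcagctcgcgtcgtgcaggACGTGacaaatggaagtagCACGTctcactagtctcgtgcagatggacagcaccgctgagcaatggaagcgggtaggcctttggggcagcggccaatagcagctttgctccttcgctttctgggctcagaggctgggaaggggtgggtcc
Pdk1: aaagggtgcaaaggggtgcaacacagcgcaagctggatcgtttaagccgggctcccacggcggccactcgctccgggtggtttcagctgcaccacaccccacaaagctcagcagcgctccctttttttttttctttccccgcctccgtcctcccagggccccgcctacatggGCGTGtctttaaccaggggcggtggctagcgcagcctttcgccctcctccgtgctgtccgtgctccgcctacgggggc
Hif3a: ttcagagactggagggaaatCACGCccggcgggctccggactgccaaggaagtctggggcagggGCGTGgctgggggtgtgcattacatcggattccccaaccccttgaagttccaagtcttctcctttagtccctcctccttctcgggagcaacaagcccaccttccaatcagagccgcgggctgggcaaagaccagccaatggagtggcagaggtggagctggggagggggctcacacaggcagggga

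Ldha had 5 matches in that stretch and Pgk1 had 2, all of them ACGTG, while Pdk1 had 1 and Hif3a 2, all of them GCGTG. RefSeq starts were found for 34 of the 37 symbols, with 52 promoters, some of which overlap. Of these 42 (80.8%) held ACGTG or GCGTG, against 38.6% of all 32851 promoters of the same length. Their median GC content was 61% against 52.4%, and the part of base composition in that difference was not tested. The list was made partly of known HIF targets, and the part of that choice in the difference was not tested either. Bnip3 had 5 matches and Ldhb, whose stretch is not shown, had 1. Tpi1, Gpi1 and Eno2 had none in this window. A match describes letters only and does not show that a factor binds.

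Pkm, Gapdh and Eno1, enzymes of later steps of glycolysis, stood highest among the members. Per kilobase of summed exon length, Pkm, pyruvate kinase of the last step, stood highest at 504 CPM per kilobase in the control-labelled libraries. Gapdh (418), Eno1 (369), Slc2a1 (267), Ldha (265), Aldoa (243), Pgk1 (224) and Tpi1 (199) followed on the same scale. Pgam1, also of a later step, was at 118, below Slc2a1 and below Aldoa and Tpi1 of earlier steps. The phosphofructokinase and hexokinase genes were lower, with Pfkl, the main phosphofructokinase gene here, at 49.7, Hk1 at 17.5 and Hk2 at 12.4 CPM per kilobase. From Slc2a1 down to Tpi1 each gene overlapped in range with the next over the control-labelled libraries, and the summed exon length counts exons that a given transcript need not use. Several of these enzymes, Gapdh among them, have processed pseudogenes, and how reads shared with such copies were counted is not given in the sources used here.

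**Figure D4:**
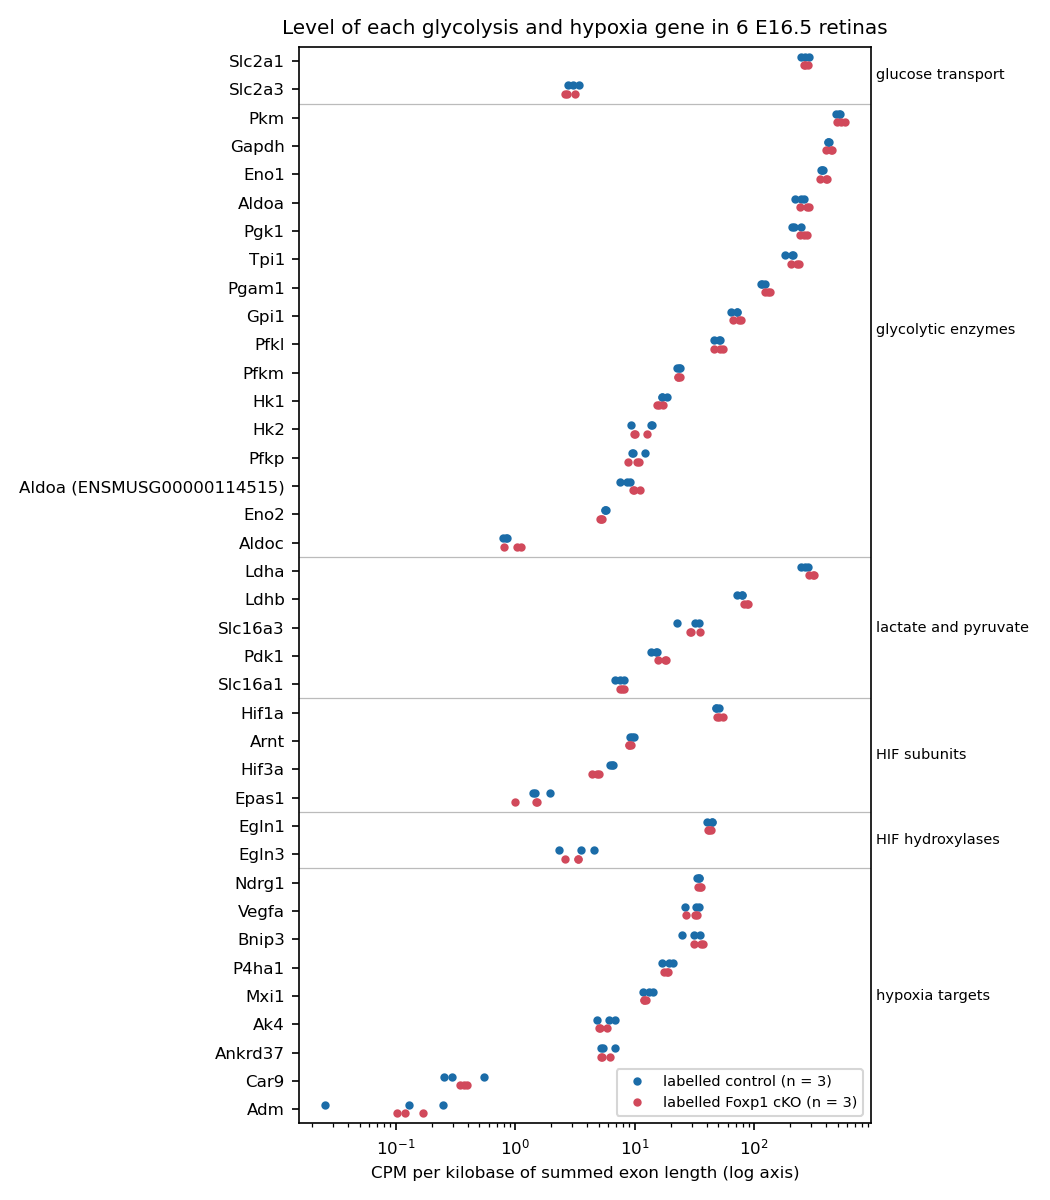
Level of each member in each library as CPM per kilobase of summed exon length (horizontal log axis), grouped by role and ordered within a role by the mean of the control-labelled libraries. Pkm is the highest at about 504 and Adm the lowest, and in most rows the groups lie on top of each other.

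Among the 16 glycolytic enzyme rows 11 were higher and 5 lower in the cKO-labelled libraries, none passed, and the median log2 fold change was 0.07. Pgk1, which makes the first ATP of the pathway (ENSMUSG00000062070, chromosome X, 106187100 to 106203699, plus strand), was at 482, 466 and 557 CPM in control-labelled libraries 1, 2 and 3 and at 587, 616 and 538 CPM in the cKO-labelled ones. The library labelled control 3 lay above cKO 3, so the groups overlapped (log2 fold change 0.21, standard error 0.07, edgeR adjusted p 0.126). Tpi1 and Aldoa, neighbouring steps of the pathway, had log2 fold changes of 0.15 each with edgeR adjusted p of 0.245 and 0.2996. Without control 2 these were 0.09 and 0.08, and without control 2 and cKO 2 both were 0.07. The log2 fold change of Pgam1 was 0.13 (edgeR adjusted p 0.214), that of Eno1 and of Gpi1 0.07 and that of Gapdh 0.04. Pkm was at 2598, 2400 and 2571 CPM in the control-labelled libraries and at 2856, 2682 and 2483 CPM in the cKO-labelled ones, with cKO 3 inside the control range (log2 fold change 0.08, edgeR adjusted p 0.477). With the exon length trend removed, the log2 fold changes of Pgk1, Tpi1, Aldoa and Pgam1 were 0.16, 0.11, 0.11 and 0.07. Gapdh was at 0.03 there, while Eno1, Gpi1 and Pkm were slightly higher than before, at 0.08, 0.10 and 0.09. The second row named Aldoa (ENSMUSG00000114515), a separate gene model upstream of the first, was low, at 6.90, 5.96 and 7.25 CPM against 7.75, 7.90 and 8.81 CPM. The groups did not overlap (log2 fold change 0.28, edgeR adjusted p 0.242).

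The hexokinase genes of the first step had log2 fold changes below 0, and neither passed. Hk1 lay between 131 and 160.0 CPM (log2 fold change -0.11, edgeR adjusted p 0.328) and Hk2, the HIF-responsive hexokinase, between 55.5 and 83.8 CPM (log2 fold change -0.19, edgeR adjusted p 0.765). The value of Hk2 was -0.35 without control 2 and -0.08 without control 1. The phosphofructokinase genes Pfkl, Pfkm and Pfkp had log2 fold changes of 0.04, 0.00 and -0.07. Eno2, the enolase of neurons, was at 26.8, 26.9 and 26.6 CPM in the control-labelled libraries and at 24.7, 25.3 and 24.3 CPM in the cKO-labelled ones. Every cKO-labelled value was under every control-labelled one, and the difference did not pass (log2 fold change -0.11, edgeR adjusted p 0.448). Aldoc, the aldolase of glia and some neurons, was at 2.57 to 3.67 CPM (log2 fold change 0.27, edgeR adjusted p 0.516).

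In each family 1 gene carried most of the level per kilobase in both groups. Slc2a1, the glucose transporter of most dividing cells, made up 98.9% ± 0.04 of itself and Slc2a3, the neuronal transporter, in the control-labelled libraries and 99.0% ± 0.06 in the cKO-labelled ones (SD, n = 3 each). Aldoa made up 99.7% ± 0.04 and 99.6% ± 0.09 of the aldolases, and Eno1 98.5% ± 0.04 and 98.7% ± 0.09 of the enolases. The hexokinases were closer, with Hk1 at 59.0% ± 4.76 and 60.1% ± 1.98. Slc2a1 was at 930.4, 871 and 1006 CPM in control-labelled libraries 1, 2 and 3 and at 984, 927 and 909 CPM in the cKO-labelled ones, all within the control range (log2 fold change 0.01, edgeR adjusted p 0.974). Slc2a3 lay between 18.9 and 24.7 CPM (log2 fold change -0.12, edgeR adjusted p 0.552).

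The oxygen sensors and the targets outside glycolysis gave no call. Egln1, the main HIF prolyl hydroxylase, was at 159, 144 and 158 CPM against 157, 149.7 and 146 CPM, with every cKO-labelled value inside the control range (log2 fold change -0.03, edgeR adjusted p 0.848). Egln3, a hydroxylase that HIF itself induces, lay between 6.25 and 12.2 CPM (log2 fold change -0.17, edgeR adjusted p 0.814). Of the 8 tested targets 3 were higher and 5 lower, with a median log2 fold change of -0.03, and none passed. Vegfa, the growth factor that draws vessels into the retina, was at 141, 113 and 148 CPM in the control-labelled libraries and at 138, 115 and 143 CPM in the cKO-labelled ones. The low value in each group was replicate 2, and the groups overlapped almost fully (log2 fold change -0.02, standard error 0.14, edgeR adjusted p 0.974).

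Bnip3, which drives mitophagy, lay between 56.4 and 83.9 CPM (log2 fold change 0.19, edgeR adjusted p 0.618), with a log2 fold change of 0.07 without control 2 and 0.30 without control 3. Ndrg1, a stress-response gene that low oxygen induces, was at 219, 229 and 228 CPM against 236, 230.5 and 222 CPM, and the groups overlapped (log2 fold change 0.03, edgeR adjusted p 0.838). The level of P4ha1, a collagen prolyl hydroxylase subunit, was 69.8 to 86.5 CPM. Mxi1, a Max partner that opposes Myc, had the smallest p of the targets (log2 fold change -0.12, edgeR adjusted p 0.296), with -0.05 without control 3 and -0.18 without control 2. Ak4, a mitochondrial adenylate kinase, and Ankrd37 lay between 22.4 and 31.6 and between 8.07 and 10.5 CPM. The 2 lowest members were Car9, the carbonic anhydrase often used as a hypoxia marker, with 30, 17 and 14 counts against 22, 19 and 23, and Adm, the vasodilator peptide, with 1, 10 and 5 counts against 5, 4 and 7. Car9 gave no detectable difference at this depth, and Adm was not tested.

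Part of the set varied widely among littermates of the same label. The within-group coefficient of variation was 18.9% for Hk2, 16.2% for Slc16a3, 13.7% for Ak4, 12.7% for Vegfa, 12.6% for Pfkp and 12.5% for Bnip3. The median over the 31 members with a mean of at least 10 CPM was 6.33%, against 4.90% for all 10431 tested genes at that level, where 90% of genes lay under 9.08%. Hif3a, at 4.09%, and Ndrg1, at 2.77%, were steadier.

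The library labelled control 2 held the lowest value of the 6 for 19 of the 37 rows (51.4%), against 14.4% of all tested genes. Slc16a3 was at 121 CPM there against 171 and 183 CPM in those labelled control 1 and 3. For Hk2 the 3 values in the same order were 55.5, 83.8 and 82.1 CPM, and for Egln3 6.25, 9.50 and 12.2 CPM. The library labelled cKO 1 held the highest value for 12 rows (32.4%), against 13.4% of all tested genes. Without the library labelled control 2 the median log2 fold change of the members was -0.01 in place of 0.03, and it was 0.06 without control 3.

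**Figure D5:**
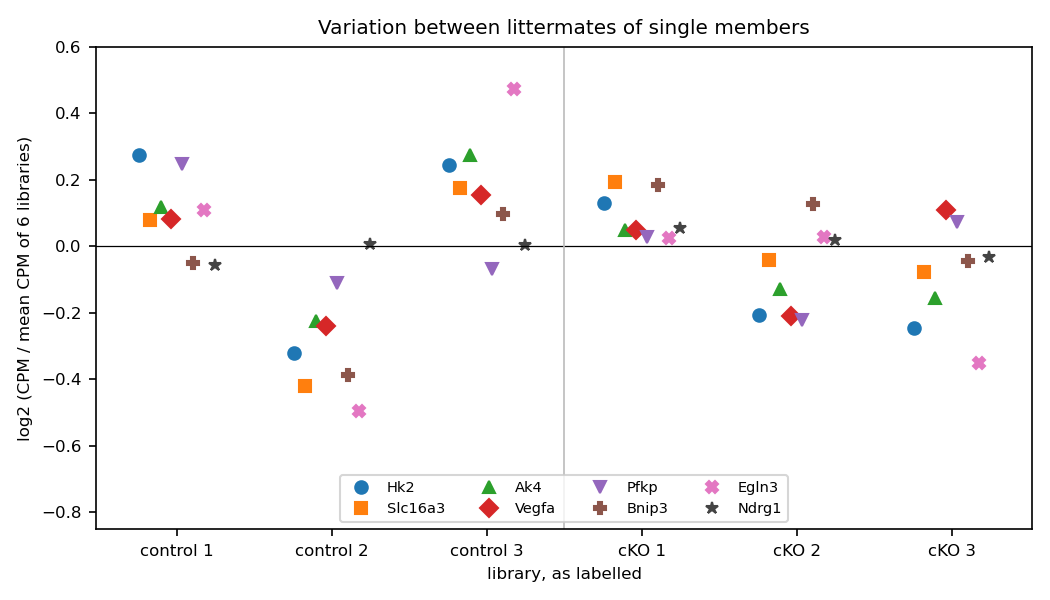
CPM of 8 members in each library relative to the mean of that gene over the 6 libraries, as log2 (vertical axis), with libraries in labelled order. In control 2 Hk2, Slc16a3, Ak4, Vegfa, Bnip3 and Egln3 have their lowest values, and Ndrg1 stays near 0 throughout.

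RNA of neighbouring tissues also differed between the libraries. The summed level of 15 lens genes was 68.6, 270.2 and 964 CPM in control-labelled libraries 1, 2 and 3 and 65.8, 24.8 and 272 CPM in the cKO-labelled ones, and control 3 stood highest. All 11 lens genes tested were lower in the cKO-labelled libraries, and none passed. The 9 endothelial genes summed to 334 to 359 CPM in the control-labelled libraries and 303 to 311 CPM in the cKO-labelled ones. Nearly all of that was Kdr, a receptor of Vegfa that retinal progenitors express too (283 to 335 CPM, log2 fold change -0.17, edgeR adjusted p 0.0911), while the defining markers Pecam1 and Cdh5 were at 1.14 CPM or less. Cldn5, a tight-junction gene of endothelium, was at 12.8 to 13.7 CPM in the cKO-labelled libraries and 13.9 to 16.8 CPM in the control-labelled ones, without overlap (log2 fold change -0.20, edgeR adjusted p 0.266). Of 6 endothelial genes tested 3 were higher and 3 lower, and none passed. Erythroid genes summed to 74.3 to 147 CPM and 111 to 180.2 CPM, with Hbb-bh1 at 0 in all libraries, and all 6 tested were higher without passing. The summed levels of muscle, microglia, pigment epithelium, astrocyte and mesenchyme genes overlapped between groups. The 14 retina markers summed to 4069 to 4243 CPM in the control-labelled libraries and 4088 to 4377 CPM in the cKO-labelled ones. Of these markers 7 were higher and 7 lower. Prox1 and Atoh7 passed, 1 higher and 1 lower (14.3% of the markers, against 0.781% of all tested genes). The part of these tissues and of retinal cell types in the values above was not tested.

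The rest of the pathway gave no call either. Of 15 further genes of HIF regulation 11 stood higher and 4 lower, with no call. An unadjusted edgeR p under 0.05 was found in 7 (46.7%), 4 higher and 3 lower, against 16.5% of all tested genes. The groups did not overlap in 5 (33.3%), 4 higher and 1 lower, against 20.1%. The most abundant were the chaperones Hsp90ab1 and Hsp90aa1, which hold HIF alpha subunits before they pair (log2 fold changes 0.08 and 0.04). Hif1an, the asparagine hydroxylase that blunts HIF activity, was singled out for its small p (log2 fold change -0.18, edgeR adjusted p 0.0793). Of 34 further tested hypoxia targets 17 were higher and 17 lower with a median of 0.00, and the most abundant were the cytokine gene Mif at 326 to 390 CPM and the histone demethylase gene Kdm3a at 162 to 184 CPM. None of 18 other isozymes and glucose transporters passed (13 higher, 5 lower), with Pgam5 and Bpgm the most abundant. The same held for 17 genes of pyruvate entry (8 higher, 9 lower), led by Pdha1 and by Bsg, a partner of lactate transporters (log2 fold change 0.13, edgeR adjusted p 0.191). In the pentose phosphate branch 6 genes were higher and 2 lower, none passed, and Tkt and Pgd had the highest CPM.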

How the data were processed

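Retinal RNA of 6 embryos was sequenced after removal of ribosomal RNA with a directional kit, per the labels' protocols. Upstream, the authors used DESeq2 1.32.0, featureCounts 1.5.1, STAR 2.7.6a, cutadapt 2.8 and the mm10 build, per the submitters' processing notes. Whether counting used strand is not given in the sources used here. The authors deposited raw counts per gene, not normalized. Their deposited comparison table holds a mean normalized signal, log2 fold changes with standard errors, a test score and p-values with adjusted p-values; values from it were copied unchanged.

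Columns were matched to samples by the descriptions in the labels. Genes were kept by filterByExpr (17275 of 55487). The test was edgeR 4.0.16 (R 4.3.3): TMM, genotype alone, robust quasi-likelihood fits, Benjamini-Hochberg adjustment over all tested genes at 0.05. CPM uses TMM-scaled library sizes, and each standard error is the log2 fold change over the root of its F statistic. Exon lengths and positions are from GENCODE M21. The replicates are separate littermates, and the library pairs within a group differed beyond sampling noise (chi-square per degree of freedom 7.39 to 12.46). Depth was 23707761 to 25714620 counts.

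The members and the gene lists were chosen with earlier results of these data known. By rule, full library values were given for members past the threshold, for members without overlap between groups, for the most abundant member of each role and for the 2 lowest; Pgk1, the variable members, Hif1an, Kdr and Cldn5 were singled out after their values were seen. The fit was tested on simulated counts. It recovered 40% of genes changed 1.25-fold, 70% at 1.5-fold and 92% at 2-fold, with 13 false among 163 calls. Smaller differences, such as the 1.15-fold one of Ldha, were not simulated. A member that did not pass is therefore not shown to be unchanged. Alternatives were other normalizations and filters, no robust estimation, DESeq2 1.42.0, limma-voom (limma 3.58.1), labelled sex or replicate number in the design, removal of the exon length trend, and leaving out libraries. Of the 37 symbols 15 share exon bases with another gene, at most 22.7% of their length (Ankrd37), so their counts are uncertain. Some of these overlaps, such as that of Pkm with Gm49759, are on the same strand.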

Additional observations from a re-analysis of the deposited data

How the results depend on the processing

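The number of genes past the threshold, 135, was 742 with no filter on low counts, 83 with a filter at 1 CPM, 10 without robust estimation, 566 with DESeq2, 13 with limma-voom, 38 with the exon length trend removed and 9 without control 2 and cKO 2; with 1 library left out it ranged from 19 to 778. The number of members past it, 1, was 5 with no filter, 3 with DESeq2 (Ldha, Pdk1 and Pgk1; Hif3a had no adjusted p there) and 0 without control 2 and cKO 2, and 1 to 5 with 1 library left out. The cause was not tested. With the replicate number as a replicate block 1065 genes (6.16% of those tested) and 3 members (Hif3a, Ldha and Ldhb) passed. Same-numbered libraries deviated together with correlations of 0.085, -0.052 and 0.199, the last being the highest of all pairs. Control 1 went best with cKO 2 (0.172). The deviations are from means of 3 libraries and so depend on each other, and these correlations cannot settle whether the libraries were paired.

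Of the 37 tested rows 26 kept their sign under every alternative run that gave an adjusted p. The other 11, none past the threshold, took the other sign of log2 fold change at least once. With the length trend removed Slc2a1 was at -0.0203, Pfkp at 0.0345 and Car9 at -0.0366. Without control 2 and cKO 2 Slc2a1 was at -0.0322, Pfkl at -0.0209, Slc16a3 at -0.0627, Car9 at -0.0625 and Epas1 at 0.0613. Slc2a1 was at -0.0022 with labelled sex in the design, and Pfkm at 0.0037, 0.0006 and 0.0026 with upper quartile normalization, no filter and the 1 CPM filter. With 1 library left out the ranges were -0.0421 to 0.0632 for Slc2a1, -0.0222 to 0.1032 for Pfkl, -0.0235 to 0.0218 for Pfkm, -0.1328 to 0.0567 for Pfkp, -0.0968 to 0.1821 for Slc16a3, -0.1782 to 0.4173 for Car9, -0.1274 to 0.0723 for Vegfa, -0.12 to 0.0343 for P4ha1, -0.3901 to 0.076 for Egln3 and -0.132 to 0.0745 for Ankrd37. With 1 library left out the log2 fold change stayed within 1.5 times its value for 8 rows (Hif3a, Eno2, Ldha, Ldhb, Pdk1, Pgk1, Pgam1 and the second Aldoa) and left that range for the other 29. Low counts limit Adm and Car9.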
